A study of Mus musculus with 9 samples.

Results

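The vitamin D receptor, the 3 retinoid X receptors that can pair with it and 4 cytochrome P450 enzymes that make or break down the hormone were followed in C2C12 cells given calcitriol. The members were Vdr, Rxra, Rxrb, Rxrg, Cyp24a1, Cyp27b1, Cyp27a1 and Cyp2r1, chosen by the gene name that the scanner files give each probe. These 8 genes had 11 of the 39429 probes on the array. The signal of 9 of the 11 was bright enough to test, as it was for 28342 probes of the whole array, and those 9 stood for 7 genes, because Cyp27a1 had no such probe.

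C2C12 is a mouse myoblast line that fuses into myotubes. The cells were treated for 72 h with vehicle, with 1 nM calcitriol or with 10 nM calcitriol, and calcitriol is 1,25-dihydroxyvitamin D3, the hormone itself. Each group had 3 biological replicates per the series' design text, each on its own 1-colour Agilent array. Myotubes are named in the series' title. Whether calcitriol was added before or after fusion is not given in the sources used here. One cell line stood for muscle, no genotype was changed, and in such bulk RNA fewer cells of a type and less RNA per cell cannot be told apart. All 14 genes of a muscle identity list (Myod1, Myog, Myf5, Myf6, Mef2c, Des, Ckm, Acta1, Actc1, Myh3, Myh8, Tnnt3, Ttn and Mymk) were measured.

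Calcitriol acts by binding the vitamin D receptor, a nuclear receptor that pairs with a retinoid X receptor and binds DNA at vitamin D response elements. The precursor is hydroxylated at carbon 25, mainly by CYP2R1 and also by CYP27A1 in the liver, and then at carbon 1 by CYP27B1, best known from the kidney, which makes the active hormone. CYP24A1 hydroxylates calcitriol at carbon 24 and starts its breakdown, and Cyp24a1 is a textbook target of the receptor, so the hormone limits its own action. Adult muscle is known for low levels of the receptor, and C2C12 cells are widely used to study it.

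The 60-base probes of the genes that changed, and of the 2 receptor genes whose probes gave different readings, show what the array measured. They are written 5′ to 3′ as the files list them, in the sense of the transcript, and capitals mark AATAAA, the usual signal for cutting and polyadenylation of a transcript. The positions are on mm9, as the files give them.
Vdr (chr15:97685136-97685195, minus strand): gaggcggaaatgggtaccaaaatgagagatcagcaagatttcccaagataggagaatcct
Cyp24a1 (chr2:170308865-170308924, minus strand): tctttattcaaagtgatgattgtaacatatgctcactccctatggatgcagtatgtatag
Rxrb (chr17:34175279-34175338, plus strand): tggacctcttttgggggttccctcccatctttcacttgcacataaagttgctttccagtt
Rxra, upstream (chr2:27615316-27615375, plus strand): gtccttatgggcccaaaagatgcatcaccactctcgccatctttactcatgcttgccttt
Rxra, downstream (chr2:27618781-27618839, plus strand): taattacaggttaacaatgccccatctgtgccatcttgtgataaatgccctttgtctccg
Rxrg, upstream (chr1:169569496-169569555, plus strand): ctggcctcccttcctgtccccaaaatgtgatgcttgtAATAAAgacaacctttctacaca
Rxrg, downstream (chr1:169569624-169569683, plus strand): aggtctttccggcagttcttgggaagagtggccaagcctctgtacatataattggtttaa

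The remaining members were read by probes at chr10:126489922-126489981 on the plus strand for Cyp27b1, chr1:74782203-74782262 on the plus strand for Cyp27a1, and chr7:121693769-121693828 (upstream) and chr7:121693684-121693743 (downstream) on the minus strand for Cyp2r1. Exons and untranslated regions around the probes were not analysed here. Probes differ in how strongly they bind, so the differences given below are taken between arrays and not between probes. Brightness of different probes is used only to pick a gene's probe, to match probes of like level and to sum lists.

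A level is log2 of the processed signal minus log2 of the array's own 75th percentile of that signal, so 0 means as bright as that percentile. That percentile lay between 2826 and 3389 intensity units, with 0 saturated spots. Vehicle replicate 3 stood apart: 96.4% of its spots passed the scanner's background test and 6124 were marked as non-uniform, against 67.1% to 79.2% and 8 to 56 spots on the other 8 arrays. The arrays lay on 3 slides: vehicle replicates 1 and 2, 1 nM replicate 1 and 10 nM replicate 1 on slide 1; vehicle replicate 3, 1 nM replicates 2 and 3 and 10 nM replicate 2 on slide 2; and 10 nM replicate 3 alone on slide 3. In fits with slide as a block, 10 nM replicate 3 therefore carries no weight in any group difference. A difference was called where the adjusted p of limma's moderated test, with Benjamini-Hochberg adjustment over all 28342 tested probes, was under 0.05.

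With calcitriol, transcripts of the enzyme that degrades the hormone and, at the higher dose, of its receptor were more abundant. Cyp24a1 was called higher than vehicle at both doses, Vdr and Rxrb were called higher at 10 nM, and no member was called lower. At 1 nM against vehicle 1 of the 9 tested probes was called, where 22.3% of all tested probes were. At 10 nM against vehicle 3 of the 9 were called, against 29.1% of all probes, so neither count stood out from the array as a whole. Between the doses, 10 nM against 1 nM, 2 of the 9 were called (Vdr and Cyp24a1), and 3.33% of all probes were. With the replicate number as a block over all 9 arrays, 518 probes of the array were called between the doses in place of 945. Vdr and Cyp24a1 were among them (adjusted p = 0.00558 for each by limma). The groups did not overlap for 1, 6 and 4 of the 9 probes at 1 nM against vehicle, at 10 nM against vehicle and at 10 nM against 1 nM, and for 41.5%, 43.2% and 23.7% of all probes.

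**Figure D1:**
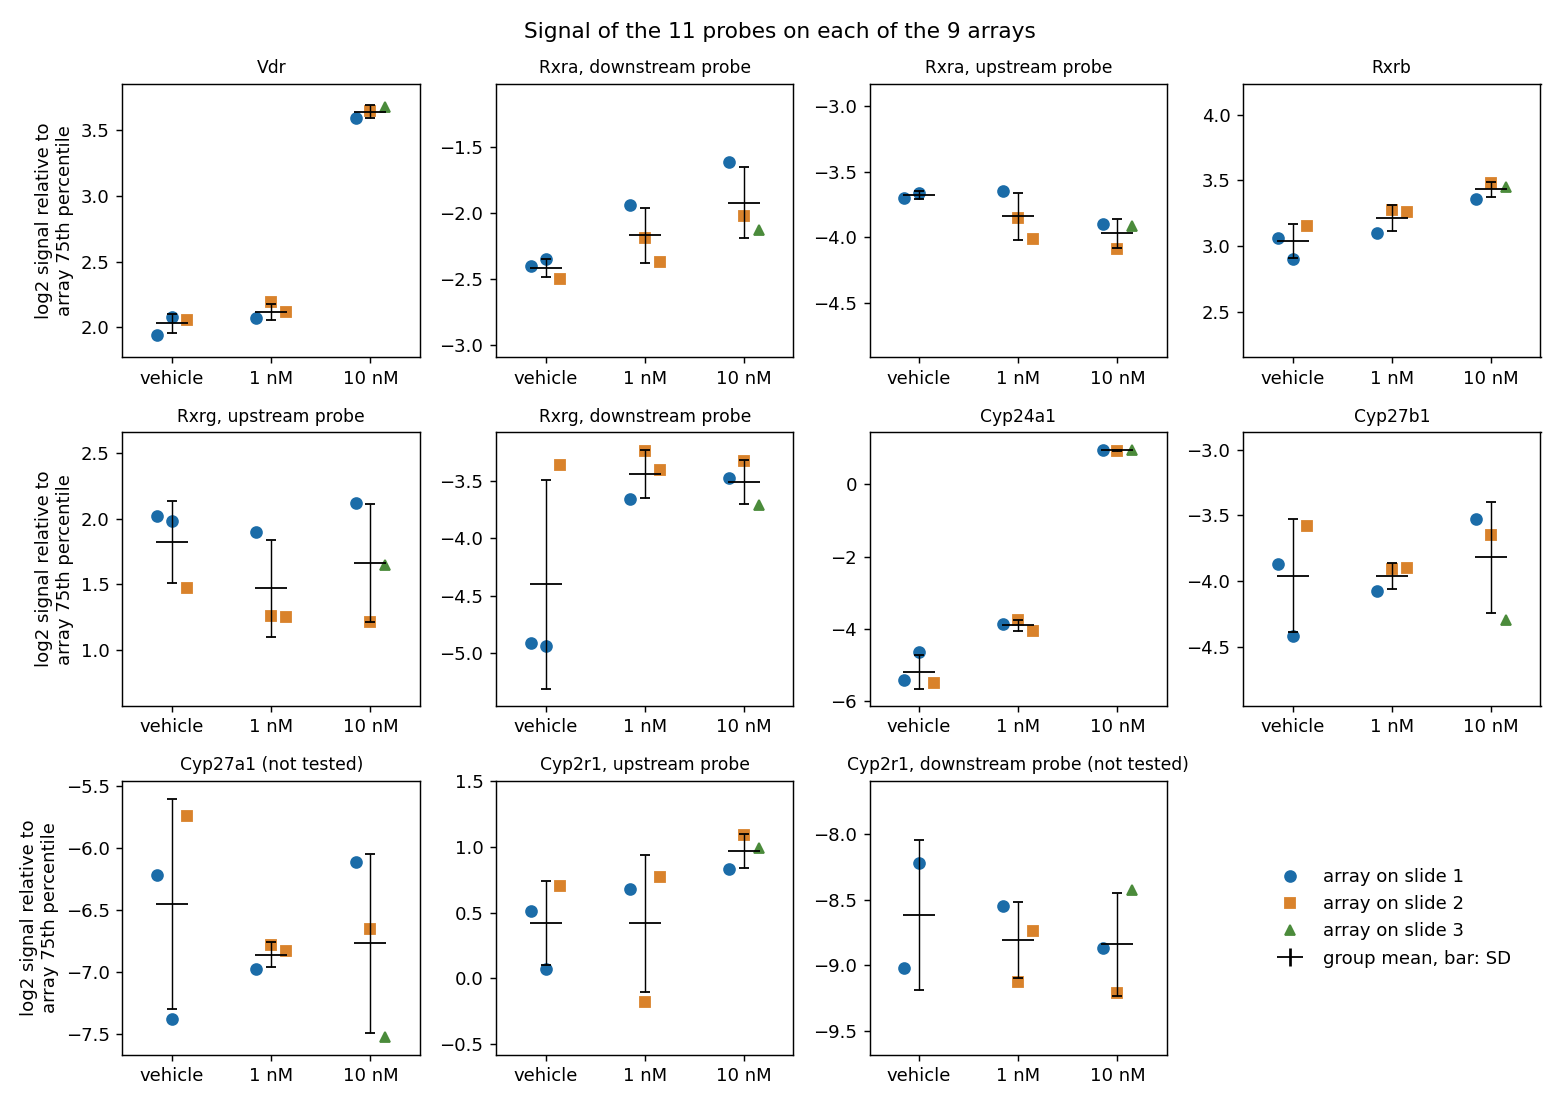
Level of each of the 11 probes (log2 signal relative to the array's 75th percentile) on each of the 9 arrays, by group from vehicle to 10 nM, with the slide as colour and shape; black bars give the group mean and SD. Cyp24a1 and Vdr at 10 nM lie far above both other groups, while Rxrg's upstream probe is ordered by slide within each group (arrays of slide 1 between 1.90 and 2.12).

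Cyp24a1, the enzyme that breaks calcitriol down, had the largest difference between the doses of all 28342 probes. Its level was -5.41, -4.65 and -5.51 on the vehicle arrays, -3.87, -3.76 and -4.05 on the 1 nM arrays, and 0.96, 0.92 and 0.95 on the 10 nM arrays. The groups did not overlap, and the probe was well above background on all 9 arrays. The mean was 0.94 ± 0.02 at 10 nM and -5.19 ± 0.47 with vehicle (SD, n = 3 each). That is a log2 difference of 6.13 (95% interval 5.63 to 6.64, adjusted p = 7.67e-07 by limma), a 70.2-fold higher signal, the 24th largest difference of either sign on the array.

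At 1 nM the same probe averaged -3.90 ± 0.15 against -5.19 ± 0.47 with vehicle (SD, n = 3 each). The log2 difference was 1.29 (95% interval 0.79 to 1.80, adjusted p = 0.0041 by limma), or 2.45-fold. The step from the lower dose to the higher was much larger, with 10 nM over 1 nM at 28.6-fold (log2 4.84, 95% interval 4.34 to 5.34, adjusted p = 0.000201 by limma).

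The response at 10 nM against vehicle was called in every one of 26 alternative analyses, with log2 differences of 5.27 to 7.11. Quantile normalization ended the call at 1 nM (log2 2.43, adjusted p = 0.125), as did the arrays of slide 1 taken alone (1.16, adjusted p = 0.139). Within slide 2 the difference at 1 nM was 1.60 (adjusted p = 0.00853), and with slide as a block it was 1.36 (adjusted p = 0.0149). Between the doses the call was lost with quantile normalization (4.67, adjusted p = 0.107), within slide 1 (4.83, adjusted p = 0.0725) and within slide 2 (4.83, adjusted p = 0.0958), with almost the same difference each time. A fit within a slide had 4 arrays and 1 residual degree of freedom, taken from the 2 vehicle arrays on slide 1 and from the 2 arrays at 1 nM on slide 2. Every other group on these slides was 1 array, assumed to vary like them.

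The receptor gene itself behaved differently at the low dose. Vdr had levels of 1.94, 2.08 and 2.06 with vehicle, 2.07, 2.19 and 2.12 at 1 nM and 3.59, 3.65 and 3.68 at 10 nM. The 10 nM arrays lay above all others, while the 1 nM and vehicle arrays overlapped. At 10 nM the mean was 3.64 ± 0.05 against 2.03 ± 0.07 with vehicle (SD, n = 3 each), a log2 difference of 1.61 (95% interval 1.45 to 1.78, adjusted p = 2.25e-06 by limma), or 3.06-fold.

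At 1 nM the Vdr difference from vehicle was 0.10 with an adjusted p of 0.368 by limma. In this fit its 95% interval, -0.07 to 0.26, allows at most a 1.20-fold rise. With arrays scaled to their median the difference was 0.59 (adjusted p = 0.264 by limma), where the median over all probes was 0.38. The 10 nM arrays were 2.86-fold above the 1 nM arrays (log2 1.52, 95% interval 1.35 to 1.68, adjusted p = 0.000201 by limma), the 123rd largest difference of either sign among the 28342 probes.

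The Vdr response at 10 nM against vehicle was called in all 26 alternative analyses (log2 1.49 to 2.14). At 1 nM against vehicle Vdr was called in 1 of the 26, the one that weights arrays by their quality (log2 0.19, adjusted p = 0.0111). The call between the doses was lost when arrays were scaled to their median (1.55, adjusted p = 0.1), within slide 1 (1.52, adjusted p = 0.132) and within slide 2 (1.50, adjusted p = 0.0958). With slide as a block it was 1.51 (adjusted p = 0.00781).

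**Figure D2:**
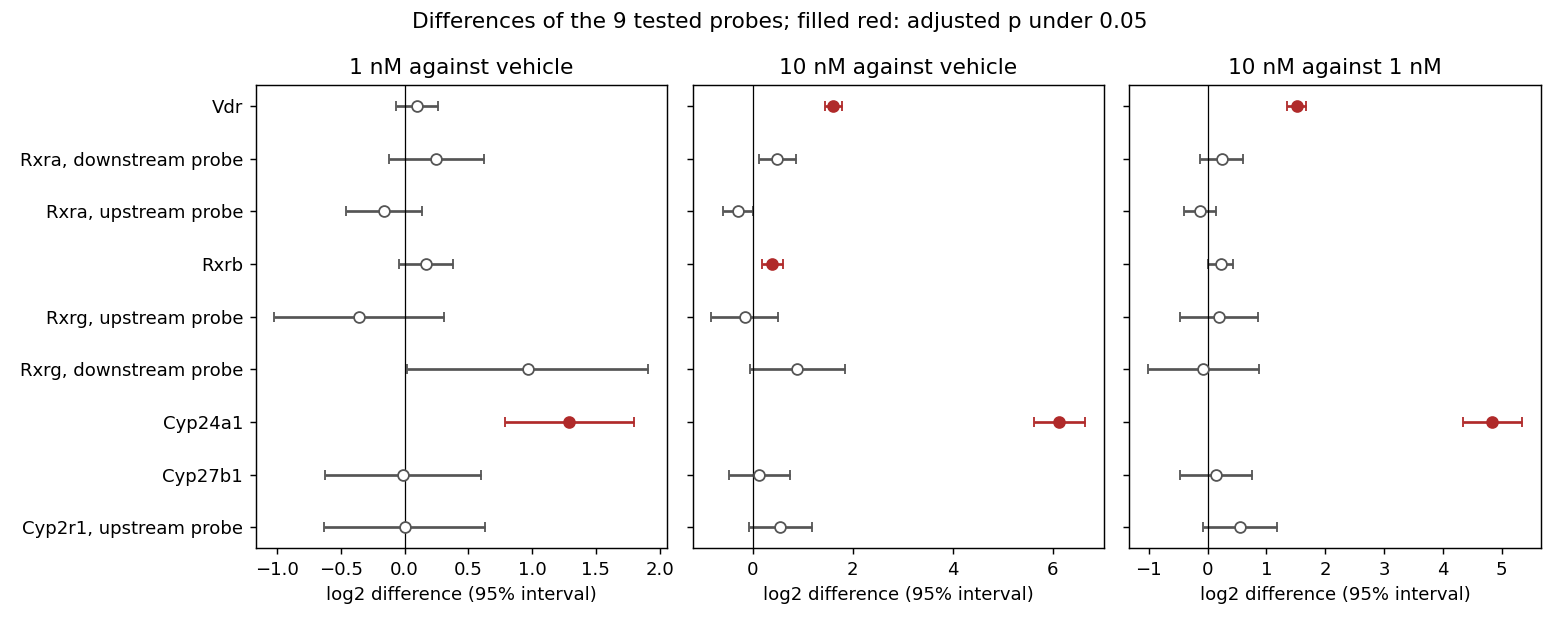
Log2 differences of the 9 tested probes with 95% intervals, for 1 nM against vehicle, 10 nM against vehicle and 10 nM against 1 nM; filled red points have an adjusted p under 0.05. Cyp24a1 and Vdr are the members called between the doses, at 4.84 and 1.52, and the horizontal scales of the panels differ.

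Of the retinoid X receptors, the usual partners of the vitamin D receptor, Rxrb showed a small rise at the higher dose. Its levels were 3.06, 2.90 and 3.15 with vehicle, 3.10, 3.27 and 3.26 at 1 nM and 3.36, 3.48 and 3.45 at 10 nM. The 10 nM arrays lay just above every other array, and the 1 nM and vehicle arrays overlapped. The 10 nM mean of 3.43 ± 0.06 against 3.04 ± 0.13 with vehicle (SD, n = 3 each) gave a log2 difference of 0.39 (95% interval 0.18 to 0.60, adjusted p = 0.0137 by limma), or 1.31-fold. The difference was 0.17 at 1 nM against vehicle (adjusted p = 0.225 by limma) and 0.22 at 10 nM against 1 nM (adjusted p = 0.393). With array weights Rxrb was also called at 1 nM against vehicle (0.19, adjusted p = 0.0182 by limma).

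This call was the least steady of those on members. It was lost in 5 of 26 alternatives: with median scaling (0.92, adjusted p = 0.0744), in the submitters' own series table (0.29, adjusted p = 0.0663), without 10 nM replicate 2 (0.37, adjusted p = 0.0534), within slide 1 (0.38, adjusted p = 0.282) and within slide 2 (0.33, adjusted p = 0.0615). The direction held in all 26. The median over all probes at 10 nM against vehicle was 0.39 with median scaling and -0.11 in the main analysis, and the 0.92 and 0.39 of Rxrb are read against these.

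Rxra was read by probes 3405 bases apart that differed in sign. The downstream probe had -2.40, -2.35 and -2.50 with vehicle, -1.94, -2.19 and -2.37 at 1 nM and -1.61, -2.02 and -2.13 at 10 nM. All 10 nM arrays lay above all vehicle arrays, by a log2 difference of 0.49 that missed the threshold (95% interval 0.12 to 0.86, adjusted p = 0.0528 by limma). It was called in 8 of 26 alternatives, among them slide as a block (0.64, adjusted p = 0.00886) and the replicate block (0.49, adjusted p = 0.0251). The slide block rests on 10 nM replicates 1 and 2, because replicate 3, the lowest of the 10 nM arrays, is alone on slide 3. The replicate block also tied the vehicle arrays by number, and these were not taken as pairs. At 1 nM the difference of this probe was 0.25 (adjusted p = 0.315), and it was called in 1 of 26 alternatives (adjusted p = 0.0319 by limma).

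The upstream Rxra probe had -3.70 and -3.66 on vehicle replicates 1 and 2, -3.65, -3.85 and -4.01 at 1 nM, and -3.90, -4.09 and -3.91 at 10 nM. The probe's spot on vehicle replicate 3 was non-uniform and left out, so the fit used n = 2 for vehicle. The 10 nM arrays lay below both vehicle arrays, with a difference of -0.29 (95% interval -0.59 to 0.01, adjusted p = 0.137 by limma), and at 1 nM it was -0.16 (adjusted p = 0.413). Neither probe was called between the doses, at 0.24 for the downstream probe (adjusted p = 0.789) and -0.13 for the upstream one (adjusted p = 0.934). With array weights both were called at 10 nM against vehicle, in opposite directions. The downstream probe was at 0.43 (adjusted p = 0.0223 by limma) and the upstream one at -0.31 (adjusted p = 0.0399).

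Rxrg, the partner best known from skeletal muscle and brain, was also read by a pair of probes, 68 bases apart. The upstream one holds AATAAA at bases 38 to 43, the downstream one begins 85 bases after that signal, and 12.6% of all 39429 probes hold these letters. The upstream probe had 2.02, 1.98 and 1.47 with vehicle, 1.90, 1.26 and 1.25 at 1 nM and 2.12, 1.21 and 1.65 at 10 nM. Its groups overlapped throughout, and its differences were -0.36 at 1 nM (95% interval -1.02 to 0.31, adjusted p = 0.417 by limma) and -0.16 at 10 nM (95% interval -0.83 to 0.50, adjusted p = 0.687).

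The upstream Rxrg values followed the slide. In a fit of group and slide together, slide 2 lay below slide 1 by a log2 difference of -0.68 (SE 0.08, adjusted p = 0.0482 by limma). It was the 1 member probe of 9 called for slide, where 0.575% of all probes were. With slide as a block the differences were -0.13 at 1 nM and -0.05 at 10 nM, neither of them called (adjusted p = 0.353 and 0.77).

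The downstream Rxrg probe had -4.91, -4.94 and -3.36 with vehicle, -3.66, -3.24 and -3.41 at 1 nM and -3.48, -3.33 and -3.71 at 10 nM. Vehicle replicate 3 alone lay among the treated arrays. With all arrays the differences were 0.97 at 1 nM (95% interval 0.02 to 1.91, adjusted p = 0.141 by limma) and 0.89 at 10 nM (95% interval -0.05 to 1.84, adjusted p = 0.143). Without vehicle replicate 3 they were 1.49 (adjusted p = 0.000554) and 1.42 (adjusted p = 0.000499). With vehicle replicate 3 kept, the probe was called at both doses with quantile normalization (1.80 and 1.76 at 1 nM and 10 nM, adjusted p = 0.0022 and 0.00171), with median scaling (1.46 and 1.42, adjusted p = 0.00364 and 0.00285) and in the series table (1.16 and 1.08, adjusted p = 0.00176 and 0.00187). It was also called with array weights (1.53 and 1.43, adjusted p = 9.15e-05 and 0.000365), where that array had the lowest weight. In all it was called in 8 of 25 alternatives at each dose. Within slide 1, with 1 array at each dose, the differences were 1.26 (adjusted p = 0.0158) and 1.44 (adjusted p = 0.00739). Slide 2 has vehicle replicate 3 as its sole vehicle array, and both differences there were 0.03 (adjusted p = 0.83 and 0.889). The call on this probe thus changed with the scaling and with that array. The upstream probe of the same gene gave -0.53 at 1 nM and -0.34 at 10 nM without vehicle replicate 3 (adjusted p = 0.249 and 0.421), and with array weights it was called lower at 1 nM (-0.67, adjusted p = 0.0177).

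**Figure D3:**
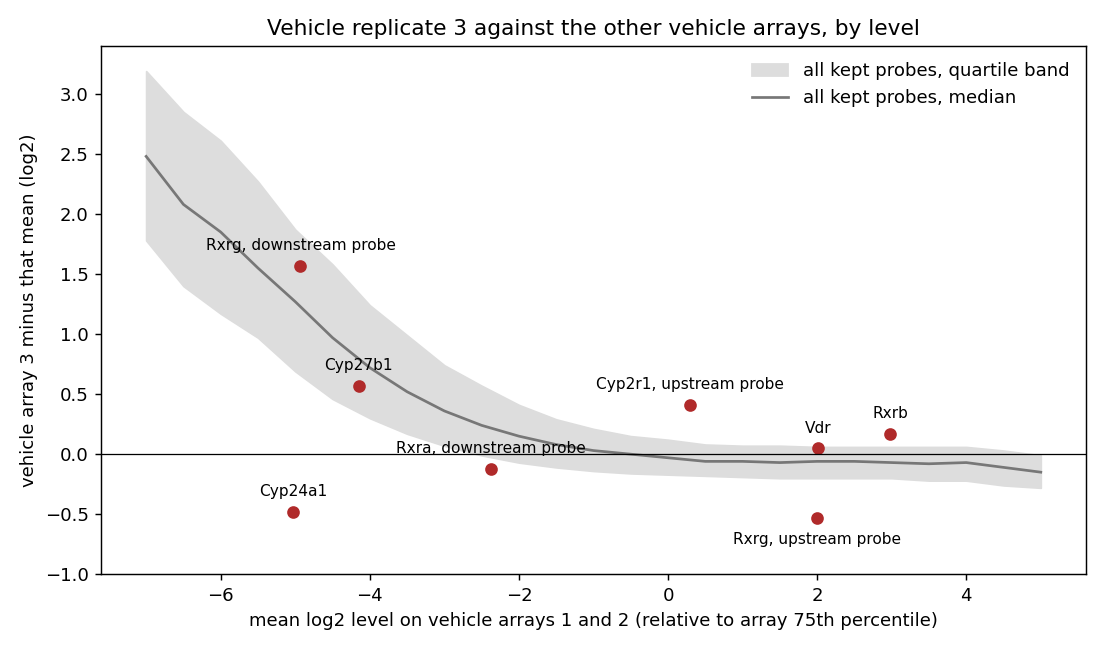
Vehicle replicate 3 minus the mean of vehicle replicates 1 and 2 (log2, vertical axis) against that mean (horizontal axis), with the median and the quartile band of all kept probes in grey and the members with a value as red points. Dim probes read higher on vehicle replicate 3, and Rxrg's downstream probe at 1.57 follows that curve while Cyp24a1 at -0.48 lies below it.

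Vehicle replicate 3 read dim probes high. For the 2444 probes whose level on the other vehicle arrays lay near that of Rxrg's downstream probe, its median excess was 1.23, and the probe's own excess was 1.57. Cyp24a1 was as dim, and vehicle replicate 3 read it 0.48 below the mean of the others (log2 -0.48), where probes of like level had a median of 1.29. For Vdr the excess was 0.05 and for Rxrb 0.17, with medians of -0.06 and -0.07 at their levels. Without vehicle replicate 3 the 10 nM differences were 5.97 for Cyp24a1 (adjusted p = 2.48e-06 by limma), 1.63 for Vdr (adjusted p = 8.88e-06) and 0.45 for Rxrb (adjusted p = 0.0091), and the 1 nM difference of Cyp24a1 was 1.14 (adjusted p = 0.0083).

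Among the enzymes that make the hormone, none was called at either dose. Cyp27b1, whose product is calcitriol, had -3.87, -4.42 and -3.58 with vehicle, -4.08, -3.91 and -3.90 at 1 nM and -3.53, -3.65 and -4.30 at 10 nM. The groups overlapped in every comparison. The difference was -0.01 at 1 nM (95% interval -0.62 to 0.60, adjusted p = 0.985 by limma) and 0.13 at 10 nM (95% interval -0.48 to 0.74, adjusted p = 0.727). In this fit the intervals leave room for a 1.52-fold rise at 1 nM and a 1.67-fold rise at 10 nM. They also leave room for a fall, to 0.652 of the vehicle signal at 1 nM and 0.718 at 10 nM. Quantile normalization gave larger differences that were not called, 0.91 at 1 nM and 1.10 at 10 nM (adjusted p = 0.25 and 0.162), and within slide 2, with 1 vehicle array, the 1 nM difference was called at -0.33 (adjusted p = 0.0436).

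Cyp2r1, the main 25-hydroxylase, had 0.51, 0.07 and 0.70 with vehicle, 0.68, -0.18 and 0.77 at 1 nM and 0.83, 1.09 and 0.99 at 10 nM on its upstream probe. The 10 nM arrays lay above every array of the other groups, which overlapped each other. The difference of 0.55 at 10 nM against vehicle was not called (95% interval -0.08 to 1.18, adjusted p = 0.174 by limma), nor was that of 0.55 at 10 nM against 1 nM (adjusted p = 0.557). At 1 nM against vehicle it was 0.00 (95% interval -0.63 to 0.63, adjusted p = 0.995). The downstream Cyp2r1 probe, 25 bases away, was not well above background on any of the 8 arrays that gave it a value, and it was not tested.

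Cyp27a1, the mitochondrial sterol 27-hydroxylase that also acts on vitamin D, was printed as 10 spots per array and lay at the edge of detection. Its mean level over the spots was -6.22, -7.38 and -5.74 with vehicle, -6.98, -6.78 and -6.83 at 1 nM and -6.11, -6.65 and -7.53 at 10 nM. Of the 10 spots, 9, 1 and 9 were well above background on the vehicle arrays, 3, 7 and 5 on the 1 nM arrays and 9, 7 and 0 on the 10 nM arrays. No group had it above background on all 3 arrays, so it failed the filter. In a fit without the filter the difference was -0.42 at 1 nM (adjusted p = 0.593 by limma) and -0.32 at 10 nM (adjusted p = 0.66), each smaller than the SD of the vehicle arrays (0.85) and of the 10 nM arrays (0.72) but larger than that of the 1 nM arrays (0.10).

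**Figure D4:**
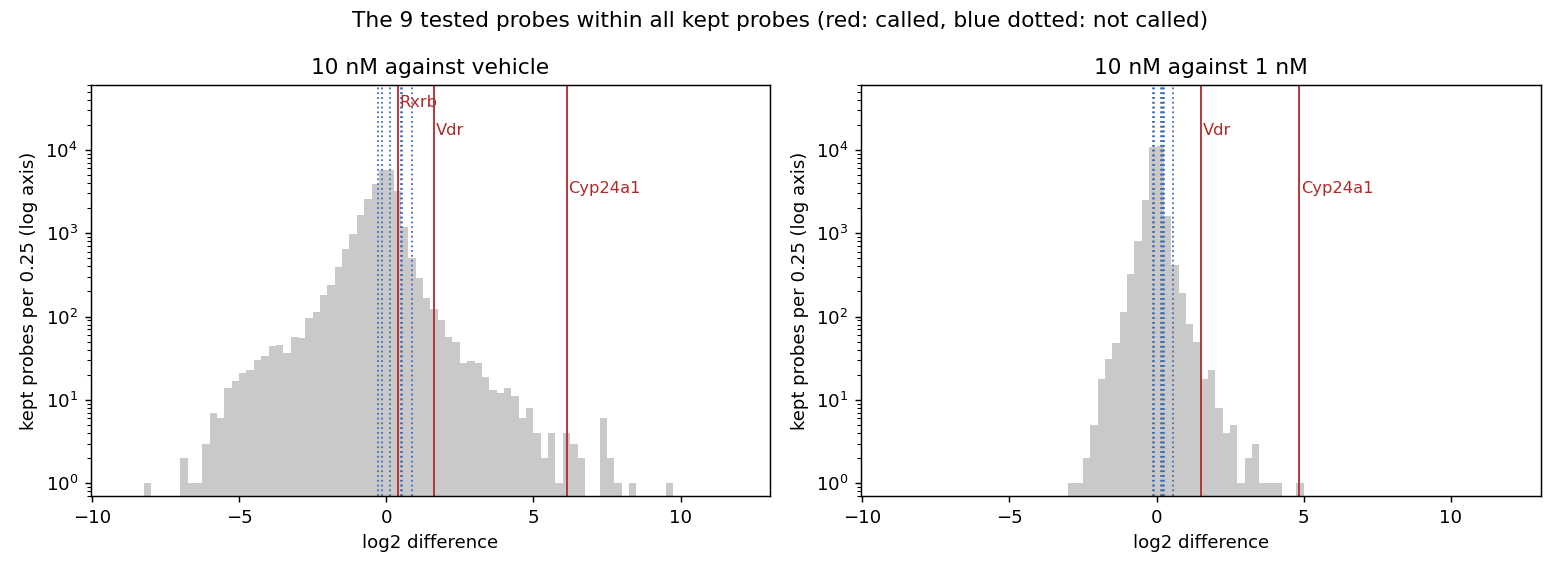
Number of kept probes per 0.25 of log2 difference (log axis) for 10 nM against vehicle and for 10 nM against 1 nM, with the 9 tested member probes as vertical lines, red where called. Cyp24a1 lies at the right edge of both distributions, at 6.13 and 4.84, and Vdr at 1.61 and 1.52 stands farther out between the doses than against vehicle.

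Set against the whole array, Vdr ranked 1691st by size of difference of either sign at 10 nM against vehicle but 123rd at 10 nM against 1 nM. Cyp24a1 ranked 24th and 1st. Among upward differences alone, Vdr ranked 461st and 68th, and Cyp24a1 19th and 1st. These comparisons share the 10 nM arrays. The genes whose levels over the 9 arrays were most like those of the called members were ranked by Pearson correlation among 14688 genes, and with 3 groups such a correlation largely reflects the group means. Nearest to Cyp24a1 were Cyp26b1 (r = 0.993), an enzyme that breaks down retinoic acid, Dhrs3 (r = 0.989), a retinaldehyde reductase, and Mcrip2 (r = 0.989). Cyp26b1 differed from vehicle by 3.55 on the log2 scale at 10 nM and 0.97 at 1 nM.

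Nearest to Vdr were again Dhrs3 (r = 0.994), then Add2 (r = 0.989), a membrane-skeleton adducin, and Acox2 (r = 0.986), a peroxisomal acyl-CoA oxidase. Dhrs3 differed from vehicle by 1.91 at 10 nM and 0.16 at 1 nM, Add2 by 1.10 and -0.03, and Acox2 by 1.84 and 0.14. Each was near its vehicle level at 1 nM as Vdr was, a likeness that the choice by correlation favours. Nearest to Rxrb were Tmem229b (r = 0.995), Sdhb (r = 0.988), a subunit of succinate dehydrogenase, and Ndufv1 (r = 0.988), a subunit of respiratory complex I, with differences of 0.84, 0.50 and 0.49 at 10 nM.

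Other genes of the pathway were counted over lists, with a gene read by its brightest tested probe. For reference, 11.5% of 21908 genes were called higher and 11.6% lower at 1 nM, 15.3% higher and 14.6% lower at 10 nM, and 1.52% higher and 2.09% lower at 10 nM against 1 nM. Of 24 measured genes of a list of known receptor targets, 9 rose and 5 fell at 10 nM against vehicle, 8 rose and 5 fell at 1 nM, and 2 rose and 1 fell between the doses (3 and 2 without vehicle replicate 3). The list's median difference was 0.12 at 10 nM and 0.18 at 1 nM, against -0.11 and -0.09 over all genes.

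Thbd, which encodes the anticoagulant receptor thrombomodulin, averaged -2.48 ± 0.07 with vehicle, 0.34 ± 0.08 at 1 nM and 1.78 ± 0.06 at 10 nM (SD, n = 3 each). It was 19.2-fold above vehicle at 10 nM and 7.07-fold at 1 nM (adjusted p = 6.92e-08 and 3.73e-07 by limma). Cldn2, a claudin of tight junctions, was 14.7-fold and 3.28-fold above vehicle (adjusted p = 2.55e-06 and 0.000175), with 2 vehicle arrays in the fit. S100g, the calcium buffer calbindin-D9k, was not well above background with vehicle and was at least 74.8-fold higher at 10 nM and at least 57.4-fold higher at 1 nM (adjusted p = 1.31e-06 and 2.41e-06, n = 2 for vehicle). Hr, the hairless corepressor that binds the receptor, fell by 1.44 at 10 nM and by 1.30 at 1 nM on the log2 scale (adjusted p = 9.87e-06 and 2.67e-05).

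Of 24 receptor coregulators, 5 rose and 3 fell at 10 nM, 5 rose and 0 fell at 1 nM, and 0 were called between the doses (2 had an unadjusted p under 0.05 by limma). Without vehicle replicate 3, 2 fell at 10 nM and 1 rose between the doses. Nrip1, a corepressor of nuclear receptors, rose 1.98-fold at 10 nM (adjusted p = 1.72e-05), Snw1, a splicing factor that binds the receptor, 1.75-fold (adjusted p = 0.000122), and Ncoa2, a p160 coactivator, 1.40-fold (adjusted p = 0.0023). Of 13 measured genes for other partners of the retinoid X receptors, 1 rose and 3 fell at 10 nM, 2 rose and 3 fell at 1 nM, and 0 were called between the doses (2 had an unadjusted p under 0.05 by limma). Leaving out the same array gave 3 that rose at 10 nM and 1 that rose between the doses. The orphan receptor genes Nr4a1 and Nr4a2 moved in opposite directions at 10 nM, with differences of 0.76 (adjusted p = 0.0027) and -0.96 (adjusted p = 0.000148). The thyroid hormone receptor gene Thra fell by 0.41 (adjusted p = 0.0066) and the retinoic acid receptor gene Rarg by 0.22 (adjusted p = 0.0296).

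Of 13 genes for vitamin D supply, cell uptake and the electron partners of the P450 enzymes, 3 rose and 4 fell at 10 nM, 3 rose and 4 fell at 1 nM, and 0 rose and 1 fell between the doses (1 and 2 without vehicle replicate 3). Fdx1, the ferredoxin that passes electrons to the mitochondrial P450 enzymes, Cyp24a1 among them, averaged 2.65 ± 0.02 at 10 nM against 1.89 ± 0.10 with vehicle (SD, n = 3 each), a 1.70-fold rise (adjusted p = 0.000159 by limma). Cyp11a1, the side-chain cleavage enzyme of steroid synthesis, fell by 2.56 on the log2 scale (adjusted p = 0.000894). The endocytic receptor gene Cubn fell by 0.65 (adjusted p = 0.000331) and its membrane anchor Amn by 0.62 (adjusted p = 0.00745).

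Some markers of other cell types moved with the doses too. Of 6 measured adipocyte markers of 7, 3 rose and 0 fell at 10 nM, and 2 rose and 0 fell at 1 nM (3 and 0 at each dose without vehicle replicate 3). The summed level of a list is log2 of its added signals, so the brightest probes weigh most. For these markers it ran from -1.63 to 0.24 on the vehicle arrays, from 1.53 to 1.60 at 1 nM and from 2.75 to 2.84 at 10 nM. Cfd was not above background on all arrays of any group. Lpl, Fabp4 and Adipoq were the members called at 10 nM. The other measured markers, Plin1, Lep and Cidec, lay lower at 10 nM, by -1.45, -1.26 and -0.44, and were not called. Without vehicle replicate 3 these were -0.56, -0.88 and -0.17, so the list did not move as a whole. Adipoq, the fat cell hormone adiponectin, averaged -6.62 ± 3.33 with vehicle, -2.54 ± 0.12 at 1 nM and 1.05 ± 0.07 at 10 nM (SD, n = 3 each), with 1 vehicle array well above background, and its call between the doses was made without vehicle replicate 3 (log2 3.59, adjusted p = 0.000343) and not with it (adjusted p = 0.357 by limma). Fabp4, a fatty acid carrier, averaged 0.75 ± 0.11 at 10 nM and -6.84 ± 2.62 with vehicle, also with 1 vehicle array well above background. Lpl, a lipase, averaged 1.61 ± 0.09 at 10 nM and -1.40 ± 0.86 with vehicle.

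Of 6 measured osteoblast markers of 7, 0 rose and 3 fell at 10 nM, and 1 rose and 2 fell at 1 nM (2 and 2 without vehicle replicate 3). Their summed level ran from 5.53 to 5.81 on the vehicle arrays, from 4.33 to 4.41 at 1 nM and from 4.56 to 4.57 at 10 nM. Col1a1 alone averaged 5.68 with vehicle, 4.34 at 1 nM and 4.55 at 10 nM, so the sum mostly repeats that gene. Alpl was not above background on all arrays of any group. Dmp1, a bone matrix protein, was at least 22.6-fold lower at 10 nM (adjusted p = 7.59e-06 by limma). The collagen gene Col1a1 fell by 1.13 (adjusted p = 3.83e-05), and the endopeptidase gene Phex fell by 0.59 at 10 nM (adjusted p = 0.00114) while at 1 nM it was 1.86-fold above vehicle (adjusted p = 0.000169).

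Of the 14 muscle identity genes, 8 rose and 1 fell at 10 nM and 8 rose and 0 fell at 1 nM, or 5 and 1, and 6 and 0, without vehicle replicate 3. Their summed level ran from 8.72 to 8.87 on the vehicle arrays, from 9.07 to 9.21 at 1 nM and from 9.14 to 9.21 at 10 nM. Ttn, the giant sarcomere protein, rose 2.03-fold at 10 nM (adjusted p = 0.000433 by limma), the myogenic factors Myod1 1.86-fold (adjusted p = 0.000741) and Myf6 2.21-fold (adjusted p = 0.00135), and Myog fell by 0.43 on the log2 scale (adjusted p = 0.00325). Of 5 measured leukocyte markers of 6 and 4 measured kidney and gut epithelium markers of 8, 0 were called in any comparison with all arrays. Without vehicle replicate 3, 1 leukocyte marker rose at each dose and 1 epithelial marker at 1 nM. At most 1 leukocyte marker and 0 epithelial markers had an unadjusted p under 0.05 by limma in a comparison, and Tyrobp and Epcam were above background on 0 arrays. The part of any of these marker changes in the differences of Vdr, Rxrb and Cyp24a1 was not tested.

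Promoter windows of 300 bases, 250 before to 50 after a transcript start, were held in the RefSeq table for 7 of the 8 members, 10 windows in all, on GRCm38.p6. Cyp24a1 was not among them. A vitamin D response element of the DR3 type, a direct repeat of a core hexamer with a gap of 3 bases, was found in 0 of the 10 windows and in 0.0396% of all 32851 windows. The hexamer AGGTCA, 1 form of that core, alone was in 2 of the 10 and in 16.3% of all, and GGGCGG, the letters bound by Sp1, in 5 of the 10 and in 35.7% of all, with 3 matches in the Vdr window. Both strands were searched. A match or its absence describes these letters in these windows only.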

How the data were processed

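The files hold the authors' scanner output for 9 arrays. Per the file headers, the deposited processed, mean and background signals are intensity values on a linear scale, already background-corrected in the processed column, and the deposited columns of other kinds mark, with 0 or 1, spots that are controls, uneven, saturated or above background. Agilent Feature Extraction 11.5.1.1 made them, and limma is named without a version, per the submitters' processing notes. Probe positions are on mm9 in the headers of 8 files, and the header of the file of 10 nM replicate 3 names no build. The deposited series table holds the authors' log2 values of 30094 probes, with medians of 9.65 to 9.72 per array. It correlated at 0.9985 to 0.9999 with log2 mean signals after normexp background correction and quantile normalization, and was used as an alternative. How it was normalized is not given in the sources used here.

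From these files, log2 processed signal minus the array's 75th percentile was computed. Control spots and spots marked non-uniform were left out, and replicate spots averaged. The filter asked that at least 0.5 of a probe's spots pass the scanner's background test on every array of 1 or more groups, and 71.9% of probes met it. Of the kept probes, 2270 had no value on vehicle replicate 3. Gene names of the members are those in the files, and other names were updated through a RefSeq table on GRCm38.p6 where an accession, symbol or synonym matched.

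All probes were fitted together in limma 3.58.1 under R 4.3.3 (lmFit and eBayes, 3 groups, no block). The threshold was an adjusted p of 0.05 (Benjamini-Hochberg). The fit was tested on simulated data. The number of arrays limits the precision. The members and the lists were chosen with earlier results of these data known. Besides every member probe, the text names up to 4 genes of each list that were called at 10 nM against vehicle with the smallest p, or 2 where none was called, and the 3 genes most correlated with each called member. A gene that this rule took is not reported here. Of the 2 uncalled lists the rule named Itgam and Ptprc, with differences of -0.33 and -0.95 at 10 nM, and Cdh16 and Slc34a1, with -1.34 and -0.30. The uncalled adipocyte markers were named outside this rule.

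Replicate numbers were checked as pairs from the data, not the labels. Deviations from group means of same-numbered 10 nM and 1 nM arrays correlated at 0.464, 0.317 and 0.13 over 25974 probes, so these were taken as pairs, while the vehicle numbers were not (-0.398 to 0.056). The dose arrays of replicate 1 shared a slide, as did those of replicate 2, while those of replicate 3 did not. The check therefore cannot tell a pair from a shared slide. No 2 arrays held an identical value for a kept probe, and the closest pair differed by an SD of 0.263. Slide entered as a block, and each of slides 1 and 2 was also fitted alone. Alternatives covered background correction, scaling, the series table, filters, probe choice, spread model, array weights, groups fitted, blocks and each array left out. A further pair, which combine median scaling or the slide block with leaving out vehicle replicate 3, were chosen after seeing the data.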

Additional observations from a re-analysis of the deposited data

How the results depend on the processing

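Of the called members, the 10 nM against vehicle calls of Cyp24a1 and Vdr held under all 26 alternatives, and no called member changed sign under any. Calls lost are given beside each gene. Of 691 alternative values of member probes, 608 kept sign and side of the threshold, 13 lost a call, 30 gained one and 40 changed sign without being called. Vehicle replicate 3 limits dim probes, and the call on Rxrg's downstream probe changes with that array and with the scaling. The fits within a slide have 1 residual degree of freedom. The cause of each change below was not tested.

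The counts of called probes, 6319 at 1 nM against vehicle, 8250 at 10 nM against vehicle and 945 at 10 nM against 1 nM, became 3159, 4630 and 131 with quantile normalization, 1907, 3220 and 66 with median scaling, and 14699, 13502 and 2244 with array weights. Within slide 1 they were 2074, 3383 and 5, and within slide 2 they were 13214, 12693 and 0 (limma, with 4170 at an unadjusted p under 0.05 for the 0). Between the doses the count was 381 in the series table, 578 with no filter, 1598 with only the groups compared in the fit and 332 with slide as a block. With each array left out in turn the counts ran from 4178 to 7053, from 6262 to 9130 and from 399 to 1490. The 1 nM count was 4189 and 4178 without 1 nM replicates 2 and 3. The count between the doses was 1490 without vehicle replicate 3, 482, 403 and 399 without 1 nM replicates 1, 2 and 3, and 520, 488 and 466 without 10 nM replicates 1, 2 and 3.

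With the replicate number as a block over all 9 arrays, the count between the doses was 518. The block ended no member's call. It gained the call of Rxra's downstream probe at 10 nM against vehicle (adjusted p = 0.0251 by limma), but the vehicle numbers were not taken as pairs. List counts stayed within 1.5 times in 1129 of 1404 cases.

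Sign changes fell on differences that were not called in the main analysis. For Cyp27b1 at 1 nM against vehicle (-0.01) they gave 0.02 with normexp, 0.91 with quantile normalization, 0.48 with median scaling, 0.53 in the series table, 0.06 within slide 1, 0.28 with median scaling and 0.15 with slide as a block when vehicle replicate 3 was left out, and -0.24 to 0.18 with arrays left out in turn. For Cyp2r1 in the same comparison (0.00) they gave 0.03, 0.14, 0.49, 0.02, 0.39, 0.23 and 0.21 in the same order, and -0.18 to 0.30 with arrays left out. For Rxra's upstream probe in the same comparison (-0.16) they gave 0.03 in the series table, 0.03 within slide 1, and 0.00 with slide as a block, with and without vehicle replicate 3. For Rxrg's upstream probe (-0.36 at 1 nM and -0.16 at 10 nM against vehicle, 0.19 between the doses) they gave 0.13 at 1 nM and 0.36 at 10 nM against vehicle with median scaling, 0.12 within slide 1 and 0.04 with slide as a block without vehicle replicate 3 at 10 nM, and -0.04 within slide 2 between the doses. With arrays left out it ran from -0.39 to 0.06 at 10 nM against vehicle and from -0.04 to 0.42 between the doses. For Rxrg's downstream probe between the doses (-0.07) they gave 0.15 with slide as a block, 0.18 within slide 1, 0.07 with slide as a block without vehicle replicate 3, and -0.18 to 0.03 with arrays left out. Cyp27b1 at 10 nM against vehicle was -0.07 within slide 2 and -0.10 to 0.37 with arrays left out, and between the doses -0.01 to 0.38.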
